A study of Mus musculus with 18 samples.

Results

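The carboxylesterase 1 and 2 genes were followed in the irradiated mouse heart, 10 genes in all: Ces1d, Ces1e, Ces1f, Ces1g, Ces2a, Ces2b, Ces2c, Ces2e, Ces2f and Ces2g. They were taken by gene symbol from 30072 genes with deposited values. The family was chosen by the counts of Ces2e, which are higher after irradiation than in control mice, so that difference is given below as a description without a test. RNA was sequenced from the intraventricular septum of CD-1 mice, male and female littermates of at least 8 weeks of age, in 3 groups of 6 mice. Mice examined at 2 weeks post-IR and at 6 weeks post-IR had received a single 25 Gy dose of ionizing radiation under isoflurane anesthesia, aimed at the whole heart per the study's methods. Control mice received anesthesia and CT imaging, as the irradiated mice did, but not the 25 Gy dose, per the study's methods.

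Carboxylesterases are serine hydrolases of the endoplasmic reticulum that split ester and amide bonds. In liver, intestine and adipose tissue they hydrolyse stored acylglycerols and cholesteryl esters, and they activate or clear many ester drugs. Mouse Ces1 and Ces2 genes arose by repeated tandem duplication, so neighbouring genes resemble each other closely. The heart draws much of its energy from fatty acids, which lipases release from stored and circulating acylglycerols.

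All 10 genes lie on chromosome 8 (GRCm38), in a Ces1 cluster on the minus strand and a Ces2 cluster on the plus strand. Ces2e (ENSMUSG00000031886) spans chr8:104926260-104934672, with 12 exons and a coding sequence of 1677 bases. Ces2g (ENSMUSG00000031877) spans chr8:104961718-104969537, also with 12 exons, and Ces2b (ENSMUSG00000050097) spans chr8:104831572-104840093. Ces1d (ENSMUSG00000056973) spans chr8:93166068-93197838 and has 14 exons. Coding sequences within a cluster were 74.5% to 92.1% identical over 21 pairs, and those of a Ces1 and a Ces2 gene were 62.6% to 65.3% identical over 24 pairs. Ces2e and Ces2g were 82.9% identical, and Ces2b and Ces2c 92.1%.

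The coding stretch around the nucleophilic serine shows how near these genes are to each other at the catalytic site. It does not show how far short reads can be told apart over whole transcripts. It is given for the 4 genes that were expressed, from the GENCODE M21 transcripts, 5′ to 3′, and capitals mark each base that differs from Ces2e. The glycine-glutamate-serine-alanine-glycine-glycine codons common to carboxylesterases lie in the middle of the stretch.
Ces2e: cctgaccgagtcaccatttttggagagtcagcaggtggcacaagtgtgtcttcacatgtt
Ces2g: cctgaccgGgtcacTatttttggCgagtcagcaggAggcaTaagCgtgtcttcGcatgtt
Ces2b: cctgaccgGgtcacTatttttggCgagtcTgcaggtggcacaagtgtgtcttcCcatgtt
Ces1d: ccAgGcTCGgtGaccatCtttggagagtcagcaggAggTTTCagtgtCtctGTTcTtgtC
Ces2b differed from Ces2e at 5 of these 60 bases, Ces2g at 7 and Ces1d at 18. Over the aligned coding sequence, identity with Ces2e was lower than here, at 84.0% for Ces2b, 82.9% for Ces2g and 64.0% for Ces1d. Over whole transcripts, the share of 31-base words found in another gene was 8.68% for Ces2e, 361 of 3602 words for Ces2g, 6.34% for Ces1d and 26.2% for Ces2b. Ces2b shared most with Ces2c, 7.96% of its words, and 1.88% with Ces2e. All 18 values of each of the 4 expressed genes were within 0.001 of a whole read, against 82.1% of the values over all genes tested.

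The promoters of Ces2e and Ces2g, the Ces2 genes with the highest levels here, are given to show what the neighbours share. They are from RefSeq (GRCm38.p6), 250 bases before to 50 bases after the start, on the plus strand, 5′ to 3′. Capitals mark every run of at least 9 bases that occurs in both.
Ces2e, chr8:104926010-104926309: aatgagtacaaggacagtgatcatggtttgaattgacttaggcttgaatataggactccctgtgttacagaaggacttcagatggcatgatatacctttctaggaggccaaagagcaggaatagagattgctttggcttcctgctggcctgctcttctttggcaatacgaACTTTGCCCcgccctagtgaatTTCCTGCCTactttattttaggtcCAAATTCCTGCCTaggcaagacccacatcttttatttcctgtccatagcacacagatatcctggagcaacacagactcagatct
Ces2g, chr8:104961468-104961767: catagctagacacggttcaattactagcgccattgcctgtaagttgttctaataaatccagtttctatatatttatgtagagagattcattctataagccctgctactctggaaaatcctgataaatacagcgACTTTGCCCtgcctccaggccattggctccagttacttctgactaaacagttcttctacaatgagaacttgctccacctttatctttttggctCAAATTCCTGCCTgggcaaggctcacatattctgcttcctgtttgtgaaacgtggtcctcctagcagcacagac
Entries were matched for 7 of the 10 genes, with none for Ces1d, Ces1f and Ces2b. The longest shared run, CAAATTCCTGCCT, began at -34 in Ces2e and -24 in Ces2g, and on either strand it occurred in 3 of 32851 promoters of the same length (0.00913%). The run ACTTTGCCC began at -80 in Ces2e and at -117 in Ces2g. It was also present in Ces2a and Ces2f, and in 0.262% of all promoters. A shorter run, TTCCTGCCT, was in 1.15% of all promoters and is also the end of the longest run. The letters TATAAA, searched on both strands, were in 13.6% of all promoters and among the 7 genes in Ces1g alone. A p53 half-site was found in Ces2g, from -53 to -44, and in Ces2c, against 8.36% of all promoters. None of the 7 held the full p53 element, which 0.0731% of all promoters did. These matches are descriptions of letters in this window.

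Total counts ran from 11522987 to 15501019 per mouse, and a count of 3 corresponded to 0.179 to 0.278 CPM (counts scaled to a common library total), an allowance for counting error alone. CPM here carry edgeR's TMM scaling, which centres most genes between libraries, unless library size only is stated. A gene was called expressed and was tested when it reached 0.23 CPM by library size only in at least 6 mice, as 15054 genes did. All 5 cardiomyocyte markers were abundant, with a summed median of 35600 CPM in control mice, in tissue labelled as heart septum. Summed over the 5 markers, the medians were 30200 CPM at 2 weeks and 25000 CPM at 6 weeks post-IR. In bulk tissue, fewer cells of a type and less RNA per cell cannot be told apart. The TMM factors moved with the groups, from 0.844 to 0.991 in control, 0.962 to 1.03 at 2 weeks and 1.04 to 1.13 at 6 weeks. The mitochondrial share of the counts did too, with a lowest mouse at 19.8%, 17.8% and 16.5% in that order. The part of either in the results was not tested. Each library was taken as a separate mouse, from the replicate number in its label and the study's methods. The tests set differences between groups against the spread between mice.

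Ces1d, Ces2b, Ces2e and Ces2g were expressed, and the other 6 genes were not. Ces1e, which encodes the esterase egasyn of liver endoplasmic reticulum, reached 0.23 CPM in 3 mice, with at most 7 counts. Ces1f, a liver carboxylesterase, also reached it in 3 mice, with at most 7 counts. Ces2f reached it in 1 mouse, with 3 counts. The liver carboxylesterase Ces1g and the intestinal acylglycerol hydrolase Ces2c each had 1 count in 1 mouse, and the liver acylglycerol hydrolase Ces2a had 0 counts in every mouse. The nearest member inside the threshold was Ces2b, with 0.23 CPM reached in 10 mice, and the nearest outside were Ces1e and Ces1f. Ces2b passed through the irradiated mice alone, since it reached the threshold in 0 control mice, 6 mice at 2 weeks and 4 mice at 6 weeks post-IR.

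**Figure D1:**
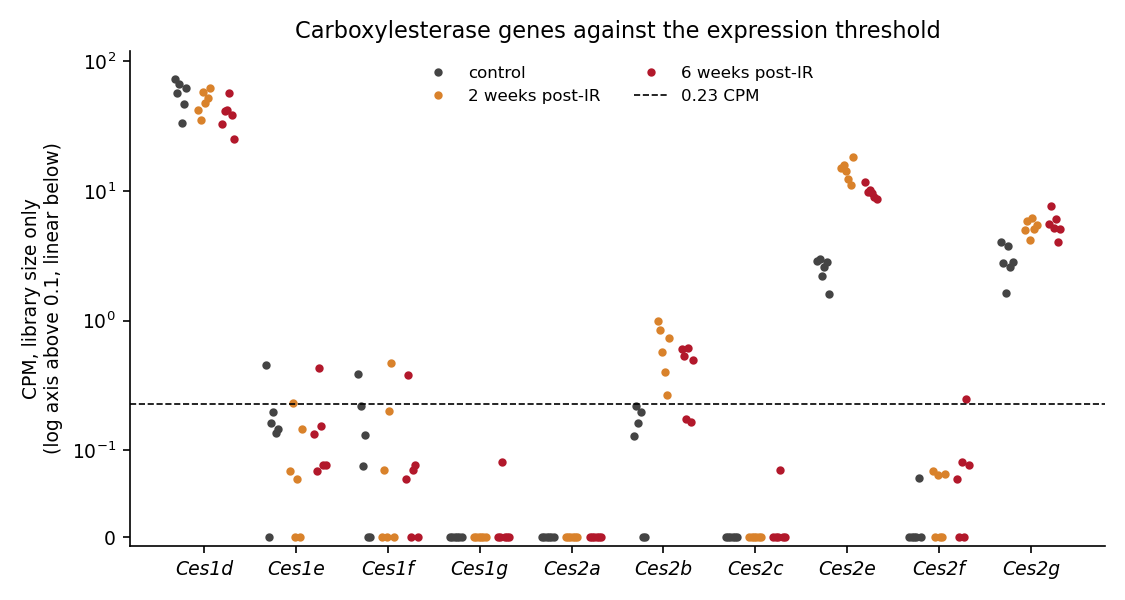
CPM by library size only (y axis, logarithmic above 0.1 and linear below) of the 10 carboxylesterase genes (x axis) in each of 18 mice, coloured by group, with the 0.23 CPM threshold dashed. Ces1d, Ces2e and Ces2g lie above the line in all 18 mice, Ces2b in 10, and Ces1g, Ces2a and Ces2c in none.

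The other 10 carboxylesterase genes of the mouse were not expressed either. Ces5a, an esterase of the epididymis, came nearest, with 0.23 CPM in 4 mice and at most 5 counts. Ces3b had at most 3 counts, Ces1h 2 and Ces4a 1, while Ces1a, Ces1b, Ces1c, Ces2d-ps, Ces2h and Ces3a had 0 in every mouse.

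Per transcript length, Ces1d led the family in every group. In TPM, which divide reads by transcript length, the mean over all mice was 75.9 for Ces1d, 6.18 for Ces2e, 2.20 for Ces2g and 0.190 for Ces2b. In control mice Ces2e lay between 0.987 and 1.79 TPM and Ces2g between 0.735 and 1.92 TPM, so these neighbours in the order did not differ beyond their spread. At 2 weeks post-IR the ranges were apart, 7.69 to 12.1 TPM for Ces2e and 2.02 to 3.06 TPM for Ces2g. They were also apart at 6 weeks, at 6.27 to 8.40 TPM and 1.90 to 3.80 TPM. The ratio of Ces2e to Ces2g within a mouse averaged 1.30 ± 0.466 in control, 3.99 ± 0.859 at 2 weeks and 2.64 ± 0.540 at 6 weeks post-IR (SD, n = 6).

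Ces2e made up a larger share of the family's reads per length after irradiation. Ces1d took a median of 96.1% of the family's summed TPM in control mice, 85.8% at 2 weeks and 85.2% at 6 weeks post-IR. Ces2e took a median of 1.96% in control, 10.7% at 2 weeks and 9.34% at 6 weeks, and its lowest share after irradiation, 6.02%, was above its highest control share, 3.05%. Summed TPM of the family had medians of 83.2, 85.7 and 77.9 in the same order, with ranges that overlapped widely. Both shares hold Ces2e itself and are descriptions.

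**Figure D2:**
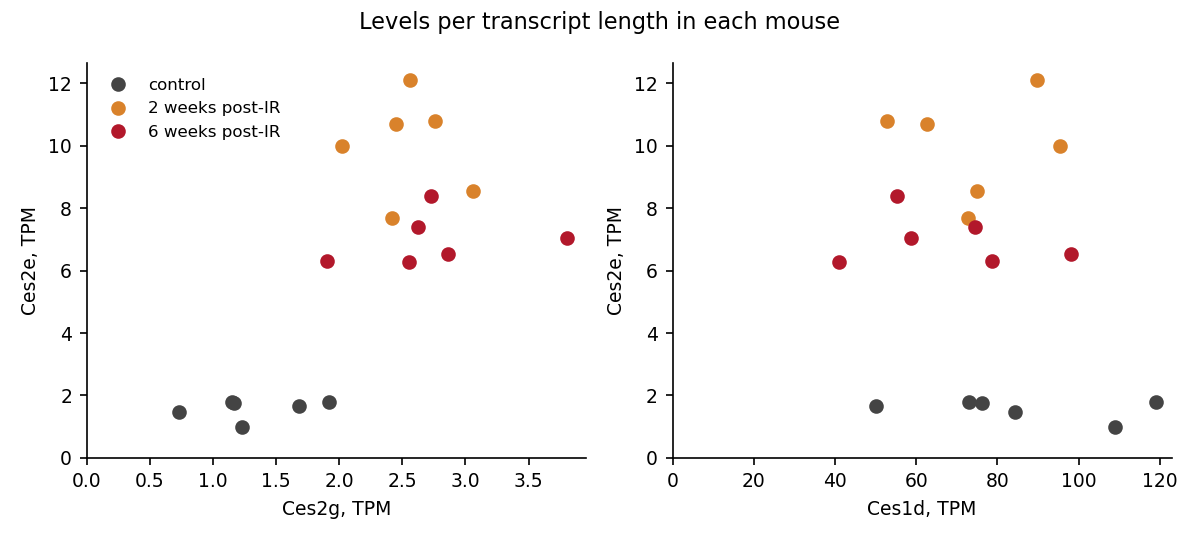
Ces2e TPM (y axis) against Ces2g TPM (left, x axis) and Ces1d TPM (right, x axis), 1 point per mouse, coloured by group. Control mice lie at or below 1.79 TPM of Ces2e and all irradiated mice at or above 6.27 TPM, while the Ces1d ranges of the 3 groups overlap.

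Ces2e, a Ces2 acylglycerol hydrolase known from intestine and liver, was higher in all 12 irradiated mice than in any control mouse, and lower at 6 weeks than at 2 weeks post-IR. In control mice it ranged from 1.90 to 3.42 CPM with a median of 2.82. At 2 weeks post-IR it ranged from 11.0 to 18.1 CPM with a median of 14.2, and at 6 weeks from 7.83 to 10.4 CPM with a median of 8.93. With TMM scaling each group was apart from both others, with every mouse at 6 weeks between the highest control mouse and the lowest mouse at 2 weeks. By library size only, 6-week mouse 1 was at 11.7 CPM and 2-week mouse 5 at 11.1 CPM, and per length they were at 8.40 and 7.69 TPM, so those groups overlapped there while control mice stayed apart. Its mean was 5.15-fold that of control at 2 weeks (log2 fold change 2.36, SE 0.142) and 3.24-fold at 6 weeks (1.70, SE 0.145), values that chose the family. Of all genes tested, 1.96% were higher in every mouse at 2 weeks than in every control mouse, and 5.8% at 6 weeks.

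The step from 2 to 6 weeks was not the difference that chose the family, and it was tested. It uses the irradiated mice whose values entered that choice, so its P value is not independent of the choice. Ces2e was 8.99 ± 0.840 CPM at 6 weeks and 14.3 ± 2.62 CPM at 2 weeks post-IR (SD, n = 6 each). It fell by 0.67 on the log2 scale (SE 0.123, adjusted P = 0.00713, edgeR's quasi-likelihood test with Benjamini-Hochberg adjustment over 15054 genes), to 0.630-fold, and with TMM scaling was lower in 6 of 6 mice. Of the 4 expressed genes it alone was called in this comparison, where 5.33% of all genes tested were called and 3.54% had groups that did not overlap with TMM scaling. On the scale log2(TPM + 0.1) the adjusted P was 0.0523 with a fall of 0.50.

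**Figure D3:**
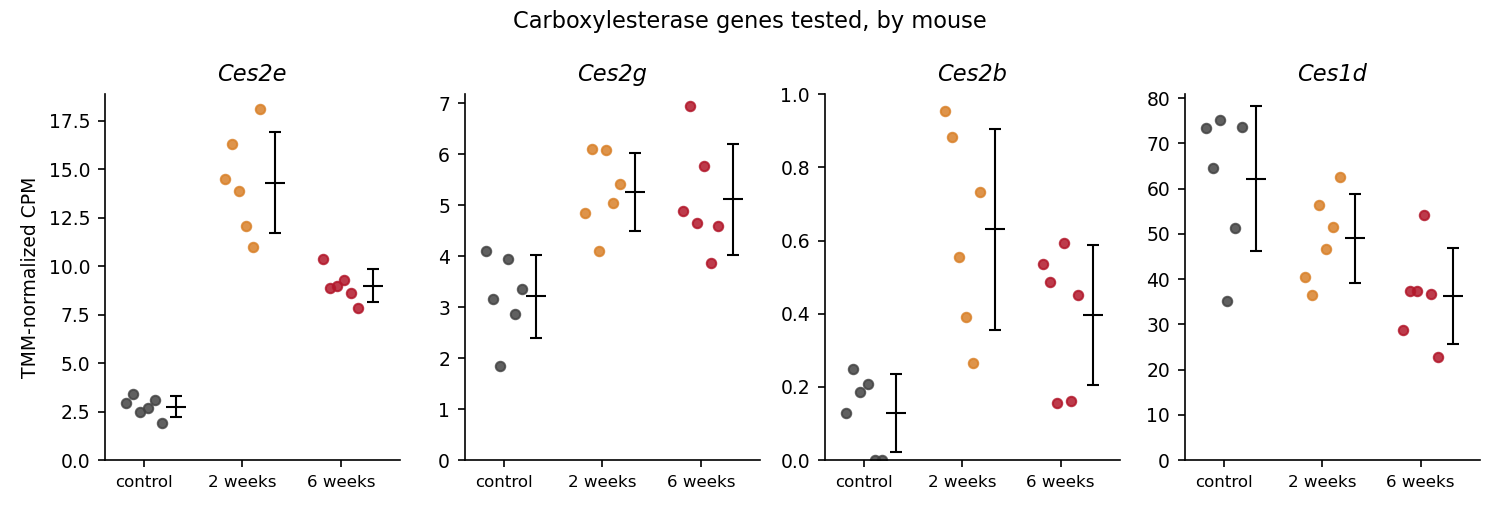
TMM-normalized CPM (y axis, from 0, a scale for each panel) of the 4 expressed genes in each of 6 mice per group (points), with the mean and SD of the group beside them. Ces2e is highest at 2 weeks post-IR, with groups that do not overlap on this scale, Ces2g and Ces2b are higher after irradiation, and Ces1d is lower on average with overlapping groups.

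Ces2g, a further Ces2 carboxylesterase, was higher at both times by a smaller margin. Control mice ranged from 1.85 to 4.10 CPM with a median of 3.27, and mice at 2 weeks post-IR from 4.10 to 6.10 CPM with a median of 5.23. At 6 weeks the range was 3.86 to 6.94 CPM and the median 4.77. Mice at 2 weeks were just apart from control mice, since the highest control mouse and the lowest irradiated mouse both rounded to 4.10 CPM, and per length they were at 1.92 and 2.02 TPM. At 6 weeks 5 of 6 mice were above all control mice.

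Ces2g rose by both comparisons with control. At 2 weeks it was 1.61-fold (0.69 on the log2 scale, SE 0.174, adjusted P = 0.0283). At 6 weeks it was 1.57-fold (0.65, SE 0.175, adjusted P = 0.00992). The call at 2 weeks was lost when any 1 of control mice 3, 5 or 6 or of 2-week mice 2, 4 or 6 was left out (adjusted P 0.0558, 0.0609, 0.0522, 0.0578, 0.0529 and 0.0554 in that order). The call at 6 weeks held in all 28 alternatives. Between 2 and 6 weeks the difference was -0.04 (adjusted P = 0.94), with a 95% interval from -0.36 to 0.29.

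Ces2b, the expressed gene with the fewest reads, had at most 3 counts in any control mouse. Counts were 4 to 13 at 2 weeks and 2 to 9 at 6 weeks post-IR. In CPM control mice ranged from 0 to 0.250 with a median of 0.158, mice at 2 weeks from 0.265 to 0.954 with a median of 0.645, and mice at 6 weeks from 0.155 to 0.593 with a median of 0.469. Mice at 2 weeks were all above the control mice, and at 6 weeks 4 of 6 were. A full separation upwards at 2 weeks was found for 1.96% of all genes tested. For Ces2b it rested on 4 or more counts against at most 3. It is also not independent of the expression threshold, which no control mouse reached for Ces2b. Because the gene entered the test only through its irradiated mice, its differences from control are given as values without a test.

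Fitted to these counts, Ces2b was at 2.18 on the log2 scale at 2 weeks (SE 0.509) and at 1.59 at 6 weeks (SE 0.556). On the scale log2(TPM + 1) the same differences were 0.32 and 0.22, since all values lay far under 1 TPM. From 2 to 6 weeks the difference was -0.59 (SE 0.388, adjusted P = 0.408, 95% interval -1.35 to 0.17). Ces2b has more sequence in common with other genes than the other expressed members, and what part of its reads other genes gave was not tested.

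Ces1d, the triacylglycerol hydrolase of liver and adipose tissue, was the family's most abundant gene and went the other way. Control mice ranged from 35.2 to 75.2 CPM with a median of 69.0. At 2 weeks post-IR the range was 36.5 to 62.5 CPM with a median of 49.0, and at 6 weeks 22.7 to 54.2 CPM with a median of 37.0. The groups overlapped, and at 6 weeks 2 of 6 mice were below all control mice.

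Ces1d fell at 6 weeks and missed the threshold at 2 weeks. The log2 fold change for 2 weeks against control was -0.34 (SE 0.197, adjusted P = 0.348, 95% interval -0.73 to 0.04). The value for 6 weeks was -0.78, or 0.582-fold (SE 0.199, adjusted P = 0.0073). From 2 to 6 weeks it was -0.44 (SE 0.199, adjusted P = 0.209). The fall at 6 weeks was -0.52 with library size only (adjusted P = 0.0377), and -0.33 on the scale log2(TPM + 1), where it was lost (adjusted P = 0.212). The median gene at 6 weeks was at 0.243 and 0.286 on those scales, against -0.02 with TMM scaling. Relative to the median gene, Ces1d at 6 weeks was lower on each of these scales, and Ces2e and Ces2g were higher.

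Marker genes of fat and of cardiomyocytes were set beside Ces1d. The 10 adipocyte markers summed to 220 to 365 CPM in control, 268 to 372 CPM at 2 weeks and 212 to 406 CPM at 6 weeks post-IR, and 0 of 8 tested were called at either time. Plin4, a lipid droplet protein also made in muscle, supplied most of these sums, with a mean of 289, 283 and 257 CPM. The other 9 markers together gave 5.74 to 32.7 CPM in control, 4.71 to 49.5 CPM at 2 weeks and 2.79 to 61.3 CPM at 6 weeks. All 5 cardiomyocyte markers fell at 6 weeks by the test, with a median log2 fold change of -0.53, and 1 fell at 2 weeks. At 6 weeks the number of these markers that fell was 2 with library size only and 1 on the TPM scales. Ces1d as a percentage of the cardiomyocyte sum ran from 0.128% to 0.212% in control, 0.102% to 0.201% at 2 weeks and 0.103% to 0.185% at 6 weeks. The part that these markers had in the fall of Ces1d was not tested.

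**Figure D4:**
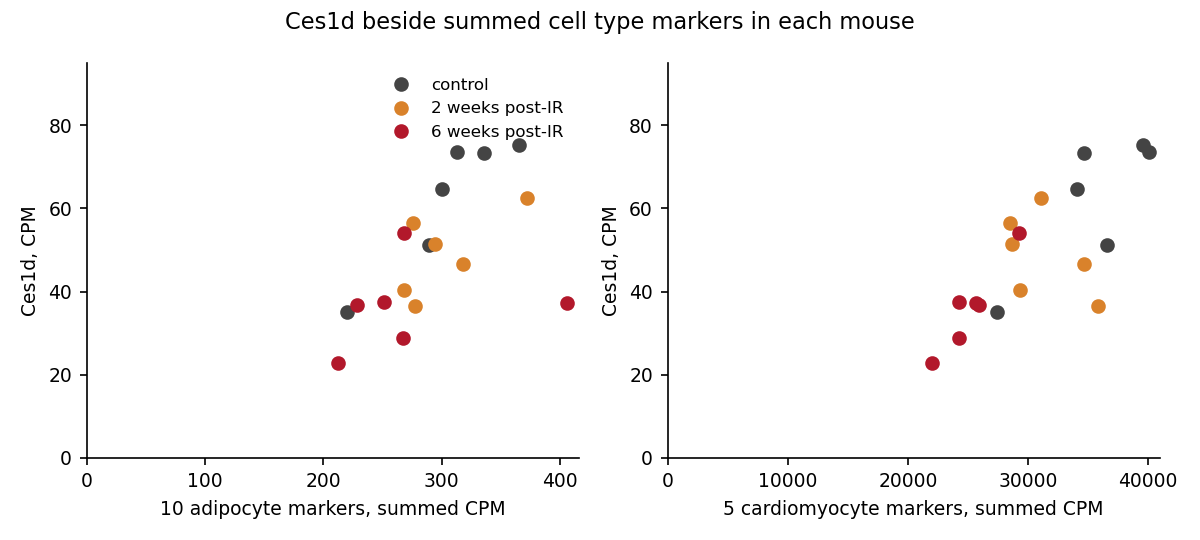
Ces1d CPM (y axis, from 0) against the summed CPM of 10 adipocyte markers (left, x axis) and of 5 cardiomyocyte markers (right, x axis), 1 point per mouse, coloured by group. The adipocyte sums of the 3 groups overlap, and mice at 6 weeks post-IR lie lowest on average in both Ces1d and the cardiomyocyte sum.

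Liver and intestine, where most of these genes are best known, left few reads. Hepatocyte markers summed to 1.03 to 6.23 CPM over all mice, with 1 of 6 at 0 throughout. Markers of intestinal epithelium summed to 3.70 to 27.3 CPM, with a median of 13.8 in control, 13.3 at 2 weeks and 11.6 at 6 weeks post-IR. Of each list 2 genes were tested and 0 were called in any comparison, and these sums overlapped between control and irradiated mice. Macrophage markers had median sums of 125, 176 and 217 CPM and endothelial markers 772, 839 and 960 CPM in control, at 2 weeks and at 6 weeks. Macrophage markers had 0 of 5 called at 2 weeks and 4 of 5 that rose at 6 weeks. Of 5 endothelial markers 1 rose and 1 fell at 2 weeks, and 2 rose and 1 fell at 6 weeks. Fibroblast marker sums had medians of 1020, 1020 and 956 CPM, and 1 of 5 fell at each time. Which cells held the Ces2e reads was not tested.

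Apart from Ces2e and Ces2b, whose differences from control carry no test here, 1 gene of the family was called at 2 weeks, Ces2g, where 5.02% of all genes tested were called and 3.24% had groups that did not overlap. At 6 weeks 2 were called, Ces2g and Ces1d, where 25.0% of all genes were called and 9.23% had groups that did not overlap. These comparisons share their control mice.

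**Figure D5:**
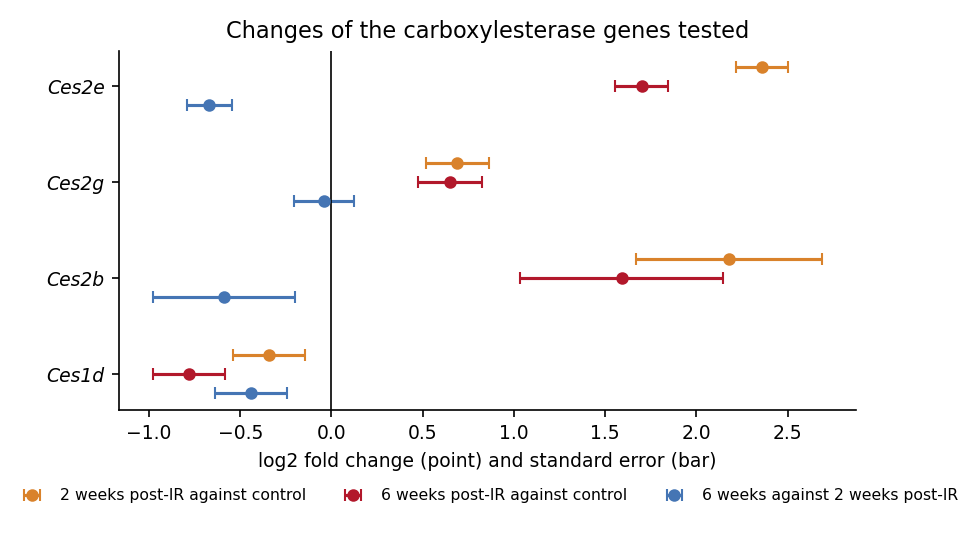
Log2 fold change (x axis, points) with its standard error (bars) of the 4 expressed genes (y axis) for 2 weeks against control, 6 weeks against control and 6 against 2 weeks post-IR. Ces2e lies at 2.36, 1.70 and -0.67, Ces2g at 0.69, 0.65 and -0.04, and Ces1d left of 0 in all 3 comparisons.

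Neutral lipid hydrolases and their cofactors, which act on the same kind of substrate, were set beside the family. Of 14 tested, 1 rose and 0 fell at 2 weeks, where 5.02% of all genes tested were called. At 6 weeks post-IR 3 rose and 6 fell, where 25.0% of all genes tested were called. The same shares apply to the marker lists above and the lists below. Median log2 fold changes were -0.10 and -0.21, beside -0.02 or nearer to 0 over all genes. Mgll, which splits monoacylglycerols, rose by 0.45 and 0.47 at 2 and 6 weeks (SE 0.0701 for both, adjusted P = 0.00121 and 9.47e-05). Pnpla8, a mitochondrial phospholipase, was at -0.38 at 6 weeks (adjusted P = 0.00667), the cholesteryl ester hydrolase Nceh1 at -0.34 (adjusted P = 0.00862) and hormone-sensitive lipase Lipe at -0.56 (adjusted P = 0.00868). With library size only and on both TPM scales, 0 of the 14 fell, and Nceh1 and Pnpla8 reached 0.02 and 0.05. Mgll kept its direction and its calls in all 28 alternatives.

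Of 21 genes of drug and xenobiotic metabolism tested, 1 rose and 4 fell at 2 weeks, where 5.02% of all genes tested were called. At 6 weeks post-IR 1 rose and 10 fell, where 25.0% of all genes tested were called. The median log2 fold changes were -0.32 and -0.29. With library size only 3 rose and 2 fell at 6 weeks, and on the scale log2(TPM + 1) 5 rose and 2 fell. The flavin monooxygenase Fmo1 fell at 6 weeks by 0.76 on the log2 scale (SE 0.0973, adjusted P = 2.28e-05) and glutathione transferase Gsta4 fell by 0.71 (SE 0.123, adjusted P = 0.000386). Gstm1, a related transferase, was at -0.41 (adjusted P = 0.00126), and on the 3 other scales its fall was lost. Ephx1, microsomal epoxide hydrolase, rose by 0.75 and 0.72 at 2 and 6 weeks (SE 0.152 for both, adjusted P = 0.00885 and 0.00175). It is also a p53 target and stood on both lists.

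Of 9 listed nuclear receptors and factors linked to carboxylesterase transcription, 7 were tested, and with TMM scaling 1 was called at each time, Trp53, which encodes p53. It rose by 0.50 and 0.66 at 2 and 6 weeks (SE 0.0781 and 0.078, adjusted P = 0.00134 and 1.11e-05). Nfe2l2, which encodes the oxidative stress factor NRF2, was at 0.03 and 0.26 (adjusted P = 0.913 and 0.0728). The bile acid receptor Nr1h4 was at 0.80 and 0.95 (adjusted P = 0.417 and 0.201), and the adipogenic receptor Pparg at -0.18 and -0.21 (adjusted P = 0.441 and 0.248). With library size only and on both TPM scales, 3 of the 7 rose at 6 weeks. Beside Trp53 these were Nfe2l2, at 0.52 to 0.68, and the liver X receptor Nr1h3, at 0.45 to 0.61.

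Of 19 p53 target genes, 11 rose and 0 fell at 2 weeks, and 14 rose and 1 fell at 6 weeks post-IR, with medians of 1.08 and 1.14. The list was drawn with these results known, so its count is not independent. Phlda3 rose by 2.11 and 2.21 (adjusted P = 3.64e-08 and 9.54e-09), Eda2r by 2.40 and 2.59 (adjusted P = 5.79e-08 and 9.73e-09), and Zmat3 by 1.16 and 1.73 (adjusted P = 6.33e-06 and 1.36e-08). The stress sensor Sesn2 rose by 1.90 and 1.83 (adjusted P = 6.08e-08 and 6.06e-08). From 2 to 6 weeks 2 of the 19 rose and 0 fell. Ces2e, which fell from 2 to 6 weeks, is not among the 19, but the study's supplement lists it as a p53 target. Whether p53 acts on Ces2e here was not tested.

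The genes whose log2 CPM followed Ces2e most closely over the 18 mice are a description, since all points share the groups, libraries and scaling. Ltc4s, which encodes leukotriene C4 synthase, had a Pearson r of 0.966, followed by Sesn2 (0.945), the apoptosis gene Bax (0.94), the receptor ligand Gas6 (0.928) and the predicted gene Gm10800 (0.926). Ltc4s averaged 3.03, 14.4 and 9.42 CPM in control, at 2 weeks and at 6 weeks post-IR, close to the 2.76, 14.3 and 8.99 CPM of Ces2e. Bax averaged 8.90, 21.1 and 21.9 CPM. For Ces1d the closest genes were the mineralocorticoid receptor Nr3c2 (0.909), the sarcomeric formin Fhod3 (0.893), Sord (0.89), Selenbp1 (0.887) and P2rx6 (0.886). Fhod3 averaged 352, 293 and 212 CPM.

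Genes next to the Ces2 cluster gave little to compare. Within 250 kb of the start of Ces2e lay 15 genes outside the family, of which 1 was tested. That gene, Cbfb, which encodes a partner of the RUNX factors, lies 244 kb from that start. It was at 0.04 at 2 weeks (adjusted P = 0.786) and rose by 0.31 at 6 weeks (SE 0.0734, adjusted P = 0.00476). Around Ces1d 8 other genes lay in the same window and 0 were tested.

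In each group, mice 1 to 3 had no Y-linked reads above a summed 10 CPM and mice 4 to 6 did. Ces2e at 2 weeks post-IR ranged from 13.9 to 16.3 CPM in the 3 mice without them and from 11.0 to 18.1 CPM in the 3 with them, and in control from 2.50 to 3.42 and from 1.90 to 3.10 CPM. At 6 weeks the ranges were 8.88 to 10.4 CPM without and 7.83 to 9.27 CPM with Y-linked reads. Control and irradiated values of Ces2e did not overlap, so any split of the mice had to show their difference. The split is therefore a description and adds no evidence for that difference. Ces1d in control ranged from 64.6 to 75.2 CPM without and from 35.2 to 73.7 CPM with Y-linked reads. Adding the Y-linked level to the model left the calls of Ces2g at both times, Ces1d at 6 weeks and Ces2e between 2 and 6 weeks unchanged.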

How the data were processed

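Paired-end libraries of 18 mice were aligned with STAR and quantified with Salmon 1.0 on GRCm38, and tximport summed transcripts to genes, per the study's methods and the submitters' processing notes. The authors deposited estimated counts and TPM per gene and mouse. No deposited column of values was left out (0). Symbols were matched from a gene table for 29301 of 30072 genes. Estimated counts were rounded, scaled by TMM and tested with edgeR 4.0.16 in R 4.3.3 (quasi-likelihood, two-sided, 3 groups in 1 fit, Benjamini-Hochberg over all genes tested). Intervals of 95% are from the standard error. Genes needed 0.23 CPM in at least 6 mice, and adjusted P under 0.05 was called. The method was tested on simulated data for 2 weeks against control over 15054 genes, where 69 of 100 changes of log2 size 1 and 87 of 100 of size 1.5 were found. Of its 164 calls 8 were false. The simulation changed 200 genes, as many up as down, so its rates may not hold for these data. Alternatives used limma 3.58.1, DESeq2 1.42.0, other scalings and filters, a replicate block, a Y-linked covariate and leaving out each mouse. TPM were tested as log2(TPM + 1) and log2(TPM + 0.1). The members and lists were chosen with earlier results of these data known. Named genes were all members, up to 4 per list with the smallest adjusted P against control, and the 5 genes most correlated with Ces2e and Ces1d (log2 CPM, prior count 2). Shared 31-base words, coding identity and motifs were computed from GENCODE M21 and RefSeq sequences. The annotation release behind the counts may differ from M21. Whether counting used strand is not given in the sources used here.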

Additional observations from a re-analysis of the deposited data

Results flagged for a closer look

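Ces2e changed differently at the 2 times post-IR, by a test of the difference itself: the change at 6 weeks was smaller than that at 2 weeks by -0.67 on the log2 scale (edgeR, adjusted P = 0.00713), with TMM scaling lower in 6 of 6 mice. The irradiated mice also entered the choice of the family, so this P value is not independent of that choice. By library size only and in TPM the mice of these times overlapped, with 6-week mouse 1 at 11.7 CPM and 8.40 TPM and 2-week mouse 5 at 11.1 CPM and 7.69 TPM. In 12 groups of 6 mice, 3 for each of the 4 expressed genes, 0 held a mouse far from the others by Dixon's criterion.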

How the results depend on the processing

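Without Ces2e against control, 2 genes were called at 2 weeks, 3 at 6 weeks and 1 between 2 and 6 weeks. The first 2 counts include Ces2b, which entered the test through irradiated mice, and are 1 and 2 without it. The filter as worded in the study's methods removes genes below 0.23 CPM in at least 6 mice. Read literally, it left Ces2b untested and kept the call of Ces2g at 2 weeks. On log2(TPM + 0.1) there were 0 calls between 2 and 6 weeks. As each of the 18 mice was left out, Ces2g was called at 2 weeks in 12 fits. At 6 weeks Ces2g and Ces1d were called in all 18. The difference of Ces2g between 2 and 6 weeks, under its SE throughout, turned to 0.08 with library size only, 0.07 on log2(TPM + 1) and 0.09 on log2(TPM + 0.1), and ranged from -0.14 to 0.03 as each mouse was left out. The cause was not tested. Over the alternatives Ces2e fell from 2 to 6 weeks by 0.45 to 0.73 on the log2 scale and passed the test in 27 of 28. The alternatives reuse irradiated mice that entered the choice of the family, so these passes are not independent of that choice. Ces1d at 6 weeks ranged from -0.93 to -0.33 and passed in 26 of 28, Ces2g at 2 weeks from 0.58 to 0.95 (22 of 28), while Ces2b, as values, was at 0.32 to 2.43 at 2 weeks and 0.22 to 1.85 at 6 weeks. Ces2b could not be tested at 6 weeks under that stricter filter or with only the 2 groups. Over all genes, calls at 2 weeks went from 755 to 1189 with DESeq2, 1789 with library size only, 2813 and 3026 on the TPM scales, and to between 453 (without control mouse 3) and 882 as each mouse was left out. At 6 weeks they went from 3760 to 5820 with library size only and 7472 and 7463 on the TPM scales. Over all genes tested, mice with the same number did not deviate together (r from -0.0828 to 0.106 over 18 pairs). The number did go with the presence of Y-linked reads in each group. These values of r therefore cannot exclude a pairing by litter or batch. With the replicate number as a block, Ces2g was called at both times and Ces1d at 6 weeks, as before. Ces2e was again called between 2 and 6 weeks, and Ces2g at 2 weeks was at 0.70. Over all genes 586 were called at 2 weeks, 3549 at 6 weeks and 542 between them. At this depth 3 counts allow up to 0.278 CPM, so falls and small rises among the 6 genes not expressed were not detectable. The most mice in which any of these 6 reached 0.23 CPM was 3, for Ces1e and Ces1f.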
